A study of Caenorhabditis elegans with 2 samples.

Results

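Translation factors are the proteins that carry a messenger RNA through the ribosome, and 41 of the 19973 nuclear protein-coding genes of the nematode Caenorhabditis elegans carry their names. They are the protein-coding genes whose name begins with eif-, eef-, ife-, iff-, ifg- or ifet-, together with drr-2, in the WBcel235 annotation. Chromatin immunoprecipitation followed by sequencing (ChIP-seq) with an anti-GFP antibody was used to map the EKL-4 protein in whole worms of strain RW12207. In that strain the ekl-4 gene on chromosome I had been edited with CRISPR so that its product ends in TY1, EGFP and FLAG tags. All worms carried the edited gene, were young adults 65 h old and had been synchronized by bleaching and starvation as first-stage larvae. There were 2 biological replicates of this 1 group and no second condition, so the comparisons below are between genes, and the replicates show how far each value repeats. Peaks were called against a control alignment. Binding was averaged over all tissues of the animal, and 1 tagged strain was used.

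Initiation begins when initiation factor eIF2 brings the initiator tRNA to the small ribosomal subunit, while eIF3 serves as a scaffold and the eIF4 factors recognise the cap of the messenger RNA. The exchange factor eIF2B recharges eIF2 with GTP and is a main point at which stress lowers protein synthesis. Elongation then runs on eEF1A, which delivers aminoacyl-tRNA, on the eEF1B complex, which recharges eEF1A, on eEF2, which moves the ribosome along, and on eIF5A, which helps it over difficult stretches. EKL-4 corresponds to DMAP1 of mammals, which belongs to complexes that acetylate histones and place histone variants in chromatin.

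Of the 41 translation factor genes, 11 had an EKL-4 summit (the highest point of a peak) within 500 bp of an annotated 5' end in the authors' conservative peak list, or 26.8% (interval 15.7 to 41.9). Over all 19973 genes the share was 6.42%, and over the 19932 other genes it was 6.38% (interval 6.05 to 6.72). Intervals are 95% Wilson intervals and cover counting error over genes only. By role, 7 of the 11 summits were at eef and iff genes. Among the 6 eef genes 5 had a summit (83.3%, interval 43.6 to 97.0), and both iff genes (2 of 2), which encode eIF5A, had one. Among the other 33 genes, nearly all of them initiation factors, 4 had one (12.1%, interval 4.82 to 27.3). No test was made of any of these differences, because genes are not replicates of a condition.

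**Figure D1:**
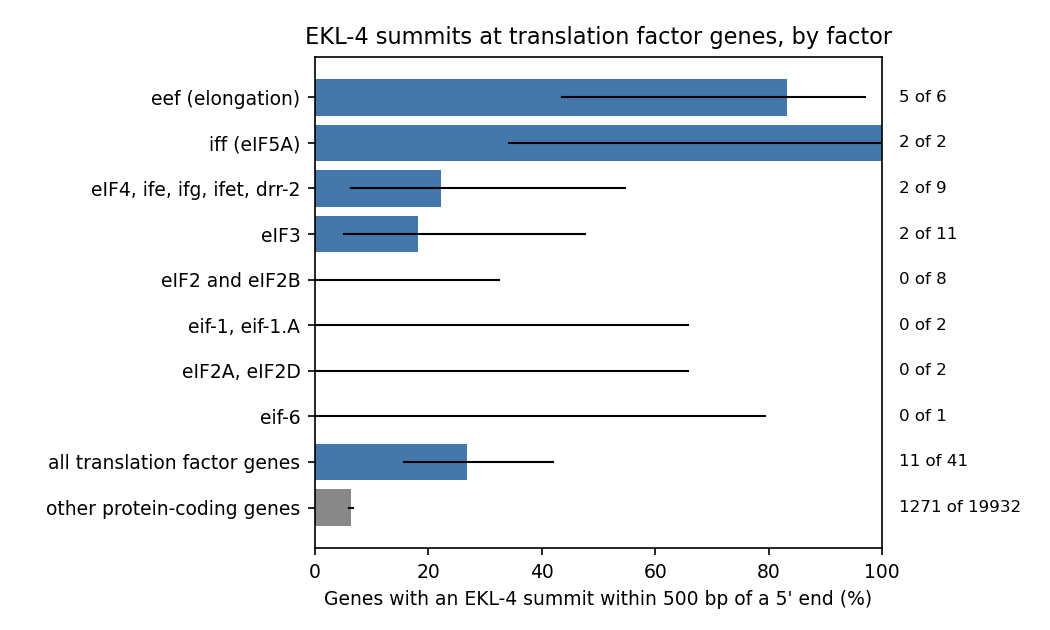
Percentage of genes with an EKL-4 summit within 500 bp of a 5' end, by factor (bars), with the 95% Wilson interval (lines) and the counts at the right. The eef bar stands at 83.3% and the bar of all 41 translation factor genes at 26.8%, against 6.38% for the other protein-coding genes.

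Sequences under the stronger summits are shown so that some of the short elements counted below can be seen in place. Marked elements occur in 5 of the 6 windows, but in those of iff-2 and eif-3.B the only marked element is TGCGTA. That element and the inverted repeat were noticed in these same windows, so this count describes them and supports nothing. The eef-1A.1 window holds no marked element. It does hold TATAAA, which is counted below but not marked. The windows hold up to 100 bases on each side of the summit, cut back where an exon of a protein-coding gene began, and are those of 6 of the 8 strongest summits. Those of eif-3.C and eef-2 lie on a chromosome whose sequence is not shown here. They were read from the RefSeq WBcel235 genome, whose coordinates are those of ce11, and each is written 5' to 3' on the strand of the named gene with the summit at base 101. The drr-2 window is chrIII:13643662-13643862 (minus strand), the iff-2 window chrII:8561368-8561527 (minus) and the eef-1G window chrV:10965580-10965718 (plus). That of eef-1A.1 is chrIII:6972011-6972211 (minus), that of eef-1B.1 chrIII:7973387-7973499 (minus) and that of eif-3.B chrII:14795014-14795214 (plus). Capitals mark, on either strand, the E2F-type sites TTCCCGC or TTCGCGC or TTGCCGC or TTGGCGC, then the element CTGCGTCTC, the element TGCGTA and the inverted repeat of TGGC followed, after any 5 bases, by GCCA, which reads the same on both strands.
drr-2: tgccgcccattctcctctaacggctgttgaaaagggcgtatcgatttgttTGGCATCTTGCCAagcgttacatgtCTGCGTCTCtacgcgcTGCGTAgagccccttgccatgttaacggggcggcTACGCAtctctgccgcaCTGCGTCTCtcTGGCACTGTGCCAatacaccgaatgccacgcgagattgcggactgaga
iff-2: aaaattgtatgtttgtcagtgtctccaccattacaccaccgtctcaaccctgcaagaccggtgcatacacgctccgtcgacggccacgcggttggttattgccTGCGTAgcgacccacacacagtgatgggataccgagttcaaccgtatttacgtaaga
eef-1G: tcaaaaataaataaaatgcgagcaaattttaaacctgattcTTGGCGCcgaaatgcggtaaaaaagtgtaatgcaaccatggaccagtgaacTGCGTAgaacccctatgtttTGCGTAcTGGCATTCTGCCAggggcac
eef-1A.1: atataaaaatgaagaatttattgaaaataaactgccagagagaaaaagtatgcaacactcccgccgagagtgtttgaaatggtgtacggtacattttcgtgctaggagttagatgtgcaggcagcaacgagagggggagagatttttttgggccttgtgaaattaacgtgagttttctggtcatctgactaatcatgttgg
eef-1B.1: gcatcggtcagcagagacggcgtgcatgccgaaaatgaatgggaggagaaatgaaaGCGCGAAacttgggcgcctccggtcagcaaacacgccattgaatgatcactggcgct
eif-3.B: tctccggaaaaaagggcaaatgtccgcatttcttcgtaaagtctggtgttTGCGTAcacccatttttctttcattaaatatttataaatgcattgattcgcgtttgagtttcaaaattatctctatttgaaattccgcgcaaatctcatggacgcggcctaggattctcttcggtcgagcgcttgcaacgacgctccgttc

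The drr-2 window held the inverted repeat in 2 places, CTGCGTCTC in 2 and TGCGTA in 2, and the eef-1G window held an E2F-type site, TGCGTA in 2 places and the inverted repeat. TGCGTA and the inverted repeat were noticed in these windows, so their counts here describe the windows and support nothing. Over the window of 100 bp on each side of all 11 summits, TGCGTA was in 5 (45.5%, those of eif-3.B, drr-2, iff-2, eef-1A.2 and eef-1G). It was in 10.6% of the 1043 summits at gene starts that no translation factor gene shared, and in 4.53% of windows of the same length just upstream of all 19973 genes. The inverted repeat was in 3 of the 11 (27.3%, those of drr-2, eef-1G and eef-2), in 2.97% of the 1043 summits and in 0.35% of all upstream windows. Among the 105 of those 1043 summits with a signal of at least 246, the median at the translation factor genes, the inverted repeat was in 11 (10.5%) and TGCGTA in 18 (17.1%). None of the 30 upstream windows of translation factor genes without a summit held the inverted repeat, and 3 held TGCGTA. With the inverted repeat in only 0.35% of all upstream windows, its absence from 30 shows no contrast. Upstream windows are also placed by the gene start and not by a summit.

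The remaining elements were searched in the same windows. E2F-type sites were in 3 of the 11 summits (27.3%, those of eef-1B.1, eef-1G and eef-2) and in 21.7% of the 1043. Among the 105 of those with a signal of at least 246 they were in 29 (27.6%), nearly the same share. Each of the 3 summits was also within 500 bp of a gene on the other strand (aco-2, ctf-4 and clsp-1 in that order). CTGCGTCTC was in 1 of 11 (drr-2) against 7.67%, CCGCCC in 1 (drr-2) against 9.78%, CACGTG in 1 (ife-1) against 4.99% and TGATAA in 0 against 10.7%. TATAAA was in 3 (eif-3.B, ife-1 and eef-1A.1) against 13.9%. In all upstream windows the shares were 6.31% for E2F-type sites, 2.34% for CTGCGTCTC, 6.01% for CCGCCC, 4.23% for CACGTG, 22.8% for TGATAA and 30.5% for TATAAA. CTGCGTCTC and TGCGTA share the letters TGCGT but differ in the base after them, and E2F-type sites can overlap CCGCCC or the inverted repeat in part. A match describes the letters and not a bound factor. The median GC content was 42.3% at the 11 summits and 42.3% at the 1043, with ranges of 37.8 to 56.7% and 25.9 to 65.2%.

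Among elongation factors, eef-2, eef-1G and eef-1A.1 had the strongest summits. The signal below is the authors' own value for each peak. Its scale is not stated, so values are compared within a list, and ranks are given for the lists of each replicate (1495 peaks in replicate 1 and 1846 in replicate 2). The eef-2 gene (WBGene00001167, chromosome I 9163531 to 9166952), which encodes the translocation factor, had a signal of 308 at -23 bp from a 5' end (negative distances are upstream). In replicate 1 the signal there was 161 (rank 85) and in replicate 2 it was 141 (rank 190). The eef-1G gene (WBGene00008920, V 10965719 to 10967922), which encodes the gamma subunit of the eEF1B complex, had 251 at -39 bp. Its signal was 109 in replicate 1 (rank 207) and 144 in replicate 2 (rank 182), with the summit at the same base in all 3 lists.

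The genes for eEF1A itself had summits farther from their annotated starts. At eef-1A.1 (WBGene00001168, III 6970026 to 6971712) the signal was 246 at -399 bp, with 118 in replicate 1 (rank 168) and 126 in replicate 2 (rank 254). At eef-1A.2 (WBGene00001169, X 7823654 to 7825769), a second gene for the same factor, the signal was 159 at -432 bp, with 72.3 in replicate 1 (rank 511) and 83.4 in replicate 2 (rank 685). The exchange factor gene eef-1B.1 (WBGene00018846, III 7972382 to 7973386) had 189 at -13 bp, with 96.2 in replicate 1 (rank 268) and 98.3 in replicate 2 (rank 449). Its summit fell inside F54H12.9, annotated as a noncoding RNA gene on the other strand, and the eef-1A.1 summit lay 26 bp from the microRNA gene cel-mir-5549. These 5 genes were in the thresholded list of each replicate, and eef-1A.1 ranked above eef-1A.2 in both. The remaining elongation gene, eef-1B.2, had no summit: the nearest was 1616 bp downstream of its start, and the strongest ranked peak in its window reached 67.2. The strongest in that window was 28.6 for replicate 1 and 29.5 for replicate 2.

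The eIF5A genes stood far apart from each other. At iff-2 (WBGene00002065, II 8559375 to 8561367) the signal was 395 at -60 bp, which ranked 66 of the 2482 conservative peaks, with 163 in replicate 1 (rank 84) and 225 in replicate 2 (rank 70). At iff-1 (WBGene00002064, III 9745862 to 9747193), which is needed in the germline, it was 93.2 at -423 bp, rank 1616, with the summit in a coding exon of cdk-1. This was the weakest of the 11 and the only one with an IDR score under 1000, at 870. IDR is the irreproducible discovery rate, a measure of how reliably a peak keeps its place from library to library. Neither replicate's thresholded list held the iff-1 peak. In the longer ranked lists, the peak that overlapped it reached 27.7 in replicate 1 and 59.6 in replicate 2, and its summit lay 86 bp from the main one in replicate 1.

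Of the eIF4 and cap-binding group, 2 of 9 genes had a summit (22.2%, interval 6.32 to 54.7), and that of drr-2 was the strongest of all 11. The 6.42% of all genes lies just inside that interval. The product of drr-2 (WBGene00011730, III 13642420 to 13643570) is an RNA-binding protein related to eIF4H, a helper of the eIF4A helicase. Its signal was 731 at -192 bp, rank 9 in the conservative list, with 394 in replicate 1 (rank 4) and 331 in replicate 2 (rank 30). The ife-1 gene (WBGene00002059, III 13343417 to 13344618) encodes a germline form of the cap-binding protein eIF4E. Its signal was 124 at -33 bp from a later 5' end of the gene, in an intron and downstream of the first annotated start. The ife-1 peak was in the thresholded list of replicate 2 (67.2, rank 1124) and, in replicate 1, in the ranked list only (56.2, with an IDR score of 829, where the lowest score in a thresholded list was 830).

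The other eIF4 genes had no summit within 500 bp. The gene ifet-1, whose product binds eIF4E and represses messenger RNAs, lay just outside the window, while eef-1A.2, at -432 bp, lay nearest to it inside. At ifet-1 the nearest summit was at -503 bp with a signal of 409, and on its other side, at -265 bp, was rps-1, which encodes a ribosomal protein. The same peak had its summit at -509 bp in replicate 1 (signal 176) and at -495 bp in replicate 2 (235), so it counted for ifet-1 in replicate 2 alone. At ife-3, for a further eIF4E, the nearest summit lay at -1124 bp (signal 130). For ife-2, ife-4, ife-5, ifg-1 (the scaffold eIF4G) and eif-4A3 (a helicase of the exon junction complex) it was more than 5000 bp away.

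Of the 11 eIF3 subunit genes, 2 had a summit (18.2%, interval 5.14 to 47.7). The 6.42% of all genes lies inside that interval. At eif-3.C (WBGene00001226, I 9976426 to 9979662), for a core subunit, the signal was 381 at -258 bp (rank 73), with 173 in replicate 1 (rank 76) and 208 in replicate 2 (rank 86). At eif-3.B (WBGene00001225, II 14795404 to 14798235), for another core subunit, it was 169 at -290 bp, with 56.8 in replicate 1 (rank 862) and 108 in replicate 2 (rank 353). The eif-3.C value stood at nearly the same rank in both replicates, and the eif-3.B ranks lay far apart. The remaining 9 (eif-3.D, eif-3.E, eif-3.F, eif-3.G, eif-3.H, eif-3.I, eif-3.J, eif-3.K and eif-3.L) had none. Of these, eif-3.G came nearest, with a summit at -1070 bp (signal 180), and had a ranked peak at -362 bp with a signal of 67.8. Its strongest ranked peak in replicate 2 lay at -364 bp (41.1), while that in replicate 1 lay elsewhere, at 168 bp (41.4). For eif-3.D the nearest summit was 1974 bp away, and for the other 7 genes it was more than 5000 bp away. There was no ranked peak at all within 500 bp of eif-3.L.

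No gene of eIF2 or eIF2B had a summit. With 0 of 8 genes, a share of up to 37.5% remains allowed by the limit of 3 counts. Both the 26.8% of all 41 and the 6.42% of all protein-coding genes lie under it. A difference from either was therefore not detectable. The eIF2 genes are eif-2alpha, eif-2beta and eif-2gamma, and the eIF2B genes eif-2Balpha, eif-2Bbeta, eif-2Bgamma, eif-2Bdelta and eif-2Bepsilon. The nearest summits were at -724 bp for eif-2gamma (signal 122) and at -777 bp for eif-2Bgamma (signal 249). Within 500 bp eif-2Bgamma had no ranked peak, and the nearest thresholded summits of the replicates lay at -875 bp in replicate 1 (signal 115) and -819 bp in replicate 2 (125). The nearest summit lay 1361 bp away for eif-2Bdelta, 3058 bp for eif-2Balpha and 3079 bp for eif-2beta, and more than 5000 bp away for eif-2Bbeta and eif-2Bepsilon. For eif-2alpha it was at -1260 bp (signal 77.2). Both eif-2gamma and eif-2alpha start just downstream of another gene on the same strand, tbca-1 at 313 bp and phb-1 at 133 bp. In each case that upstream gene had the summit, at 51 bp from the start of tbca-1 and at 68 bp from that of phb-1. A same-strand gene also ended within 500 bp upstream of eif-2Bgamma, eif-3.F, ife-5 and eef-1B.2, and there neither gene had a summit. Among the 3608 other protein-coding genes with such spacing, 319 had a summit, and for 287 without one the upstream gene had one.

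The remaining initiation genes had none either. These were eif-1 and eif-1.A, whose products help to choose the start codon, eif-2A and eif-2D, for alternative ways of placing the first tRNA, and eif-6, whose product holds the large ribosomal subunit back from joining. Their nearest summits lay at -5756 bp, -50065 bp, -21191 bp, 9940 bp and -2011 bp in that order. Over all 30 genes without a summit the nearest was 503 to 97665 bp away, and it was more than 5000 bp away for 18 of them.

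**Figure D2:**
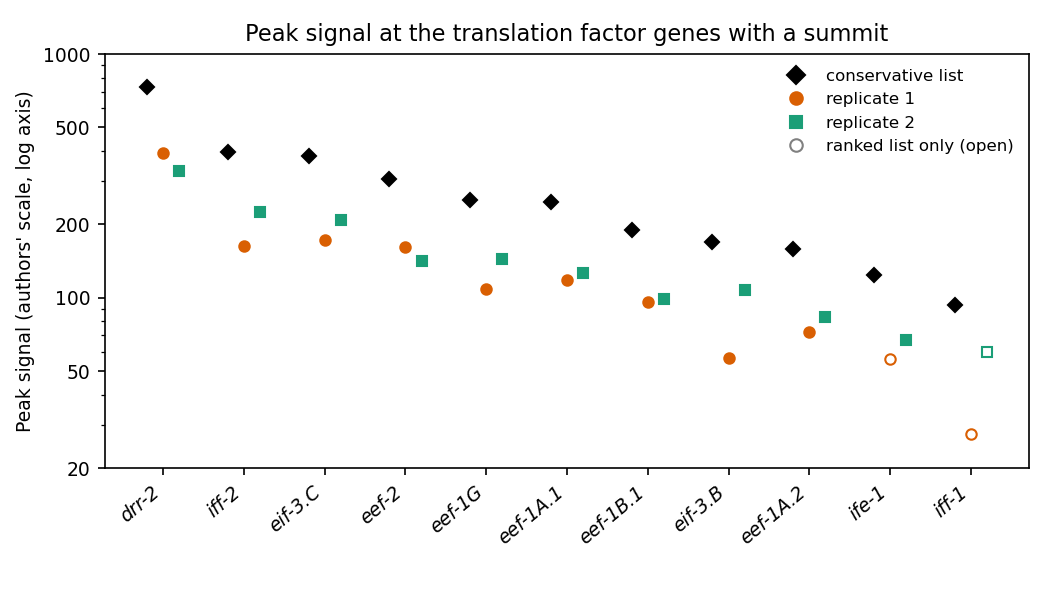
Peak signal on the authors' scale (log axis) for the 11 genes with a summit, in the conservative list and in each replicate, with open symbols where a replicate held the peak in its ranked list only. The genes run from drr-2 at 731 to iff-1 at 93.2, and only iff-1 and the replicate 1 value of ife-1 are open.

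The summits at translation factor genes were strong, and most were found in each replicate by itself. The median signal of the 11 was 246 (range 93.2 to 731), against 121 for the strongest summit of the 1271 other genes with one. In the thresholded list of replicate 1, 9 of the 41 genes had a summit, where 4.46% of all genes did, and in that of replicate 2, 11 did, where 4.76% of all genes did. In the larger thresholded list 10 did, where 7.20% of all genes did. In both replicates' own lists 9 had one, against 3.11% of all genes. By overlap of at least 1 bp, the peaks of 9 of the 11 genes (81.8%) met a thresholded peak of both replicates, against those of 611 of the 1271 other genes (48.1%). These shares were not matched for signal, which was higher at the translation factor genes. For the 9 translation factor genes, the summit in either replicate lay within 42 bp of the main one. Signal was higher in replicate 2 for 7 of the 9 and higher in replicate 1 for drr-2 and eef-2. The lists are not on 1 scale, with medians of 61.0 in replicate 1 and 73.5 in replicate 2.

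Most genes without a main summit still had weak peaks in the ranked lists, which are not thresholded. In replicate 2 ifet-1 differed, since its peak at -495 bp had a signal of 235 and was also in the thresholded list. In the ranked list behind the conservative one, 39 of the 41 genes had a peak within 500 bp, where 60.0% of all genes did. For the 28 of these without a main summit the median signal was 42.7 (range 11.0 to 67.8), against 35.0 over the 10680 other genes in the same position. Their IDR scores ran from 39 to 784. That all lay under the lowest score in the conservative list, 830, follows from the choice of genes without a summit in that list. Those with a ranked peak in both replicates numbered 21, with a median signal of 24.3 in replicate 1 and 29.5 in replicate 2, against 17.9 and 27.2 for other genes.

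**Figure D3:**
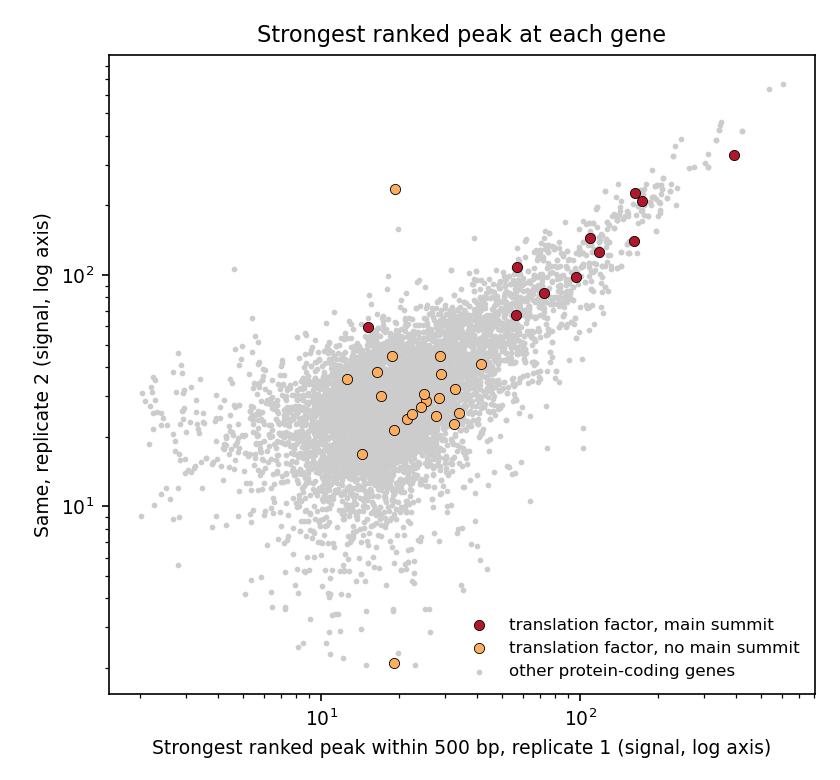
Signal of the strongest ranked peak within 500 bp of each gene, in replicate 1 (horizontal, log axis) and replicate 2 (vertical, log axis), for genes with one in both. Translation factor genes with a main summit lie at the upper right apart from iff-1 (15.2 and 59.6), and the point high above the rest of those without one is ifet-1 (19.2 and 235).

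All 11 summits lay upstream of the nearest 5' end of their gene, against 972 of the 1271 other genes with one (76.5%). Measured only from the outermost 5' end of each gene, 10 of the 11 lay upstream and that of ife-1 lay downstream. The median distance was -192 bp at translation factor genes and -161 bp at other genes. In 9 cases the summit was outside protein-coding genes, and the exceptions were ife-1 (its own intron) and iff-1 (an exon of cdk-1). In C. elegans many messenger RNAs have their first bases replaced by trans-splicing, so an annotated 5' end need not be where transcription begins.

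**Figure D4:**
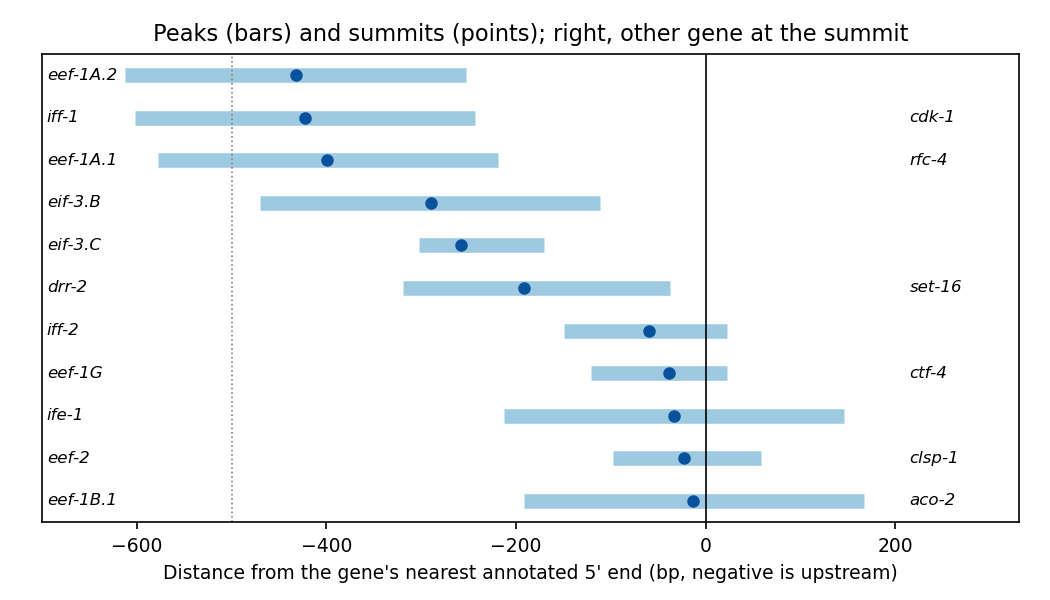
Peaks (bars) and summits (points) by distance in bp from the nearest annotated 5' end of each gene, with the other gene that has the same summit within 500 bp at the right. Summits run from -432 bp at eef-1A.2 to -13 bp at eef-1B.1, and the dotted line marks the window's upstream edge.

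Most of these summits were shared with a gene on the other strand, and several of those genes act in DNA replication or the cell cycle. Of the 11 genes, 6 shared the summit (54.5%), each with a gene on the other strand. Among the 1271 other genes 458 shared theirs (36.0%), but there the second gene could be on either strand. The summit of eef-1A.1 lay at -142 bp from rfc-4, for a subunit of the clamp loader, and that of eef-1G at -141 bp from ctf-4, for a replication and cohesion factor. The eef-2 summit lay at -242 bp from clsp-1, which encodes claspin, a replication checkpoint protein. The iff-1 summit was 144 bp downstream of the start of cdk-1, for the mitotic kinase. The remaining partners were set-16, a histone methyltransferase gene at -154 bp from the drr-2 summit, and aco-2, an aconitase gene at -318 bp from that of eef-1B.1. For drr-2, eef-1A.1 and iff-1 the partner was the nearer gene, so a summit cannot be given to the translation factor gene alone. This grouping of partners was noticed after their names were seen and was not tested.

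Many translation factor genes were divergent, and summits were present both at these and at the rest. A divergent gene here has the 5' end of an opposite-strand gene within 1000 bp upstream of its own, and 22 of the 41 did (53.7%), against 17.6% of other genes. Among the divergent ones 7 of 22 had a summit (31.8%), against 14.1% of divergent other genes. Among the rest it was 4 of 19 (21.1%), namely eif-3.B, eif-3.C, ife-1 and eef-1A.2, against 4.73%. Operon-like spacing, with a same-strand gene ending within 500 bp upstream, held for 7 of the 41 (17.1%), against 18.1% of other genes. Of these 7, 1 had a summit (14.3%), against 8.84% of operon-like other genes. It was eif-3.C, which starts 401 bp behind sys-1. On chromosome III 5 of 8 translation factor genes had a summit, against 9.65% of other genes there. The count was 2 of 12 on I (other genes 9.25%), 2 of 12 on II (6.02%), 0 of 2 on IV (7.87%), 1 of 4 on V (4.31%) and 1 of 3 on X (2.64%).

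Other genes that act in translation were looked at in the same way. Of a list of 34 names, 26 are in the annotation, and 7 of these had a summit (26.9%), with a median signal of 99.4 and a highest of 117, against 6.42% of all genes. They were erfa-3, for a termination factor (117, at -256 bp), mnk-1, for a kinase of eIF4E (110, at -68 bp), pab-1, for a poly(A)-binding protein (101, at -3 bp) and abcf-2, for an ABC protein (99.4, at 214 bp). The others were efk-1, for the kinase of eEF2 (97.2, at 404 bp), pab-2 (89.1, at -76 bp) and pek-1, for a kinase of eIF2 (70.0, at -117 bp). Of the 7, mnk-1 alone was in the thresholded list of both replicates (52.3 in replicate 1 and 74.7 in replicate 2). The eIF4A gene inf-1 had none. Cytosolic ribosomal protein genes had a summit in 44 of 78 cases (56.4%), with a median signal of 179 and a highest of 1170, and aminoacyl-tRNA synthetase genes in 4 of 32 (12.5%), with a median of 117. These shares are given side by side without a test.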

How the data were processed

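EKL-4 ChIP-seq peaks were measured in 2 replicates of 1 group. The accompanying text files say that peak calling used each replicate's alignment, or both, with a control alignment, on ce11. A further input that these files do not describe entered the thresholded lists. Names of the aligner and peak caller were not given in the sources used here. Each deposited list gives a signal per peak, on a scale that is not stated, and a score, which is the authors' IDR score. The other deposited value used is the summit's offset from the peak start. Per the labels, fragments were 200 to 800 bp. Depth is unknown, since the lists hold no read counts.

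Genes came from the Ensembl 115 annotation of WBcel235. No peak ended beyond its chromosome, and mitochondrial peaks were left out. A gene was counted when a conservative summit was at most 500 bp from any of its transcripts' 5' ends, so 1 summit can count for several genes. Positions are 1-based. Replicate values are those of the strongest peak in each replicate's own list that overlapped the conservative peak by at least 1 bp. In the ranked list that joins libraries, 8 columns hold single-library values that no label ties to a replicate, and they were not used. Every translation factor gene is named, by role. The members, the lists and 6 of the motifs were chosen with earlier results of these data known, and 2 motifs were added after the windows were seen. No test was run. Assignment of summits to genes was checked on simulated data. The software was Python 3.11.15 with numpy 2.4.6, scipy 1.17.1 and matplotlib 3.10.9. Alternatives changed the window, the peak list, the replicate, the signal minimum or the 5' ends, or gave each summit to its nearest gene.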

Additional observations from a re-analysis of the deposited data

How the results depend on the processing

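The number of translation factor genes with a summit was 11 and stayed between 8 and 14 under 7 of the 8 alternatives, while with a window of 250 bp it was 6 (14.6%, all 6 upstream), with eef-1A.1, eef-1A.2, eif-3.B, eif-3.C and iff-1 lost by the narrower window. The window of 1000 bp added eif-2gamma, eif-2Bgamma and ifet-1, and 13 of the 14 genes then had the summit upstream. Leaving out a replicate gave 9 to 11 genes (22.0 to 26.8%). Without replicate 2, ife-1 and iff-1 were lost. Without replicate 1, iff-1 was lost and ifet-1 gained, so 10 of the original genes were kept. Giving each summit to its nearest gene start left 8, without drr-2, eef-1A.1 and iff-1. The median signal, 246, lay between 220 and 279 with the other windows, the nearest gene start and the gene's own 5' end, and was not recomputed for the other lists or with the signal minimum. The share of other protein-coding genes was 4.06% with 250 bp, 8.77% with 1000 bp, 7.16% in the larger list, 3.79% for peaks at or above the median signal, 5.3% by nearest gene start and 5.92% by the gene's own 5' end, and ran from 4.43 to 4.71% when a replicate was left out. In each of these settings the share of the 41 genes was the higher. Of the 11 genes, iff-2, eef-1B.1, eef-1G and eef-2 had a summit in every setting tried. The count of genes whose peak met both replicates was 9 with either rule. No paired analysis was possible because there is 1 group. Depth limits these lists in a way that cannot be measured here, and with groups of 2 to 11 genes a share of 0 leaves wide limits.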

Other observations

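Genes for translation factors that carry other names were looked up after the data were seen. The eIF3 subunit gene cif-1 (chromosome IV 4706854 to 4710755) had a summit 158 bp downstream of a 5' end, with a signal of 97.4, and was in the thresholded list of replicate 2 (64.1) but not in that of replicate 1. The eIF3 subunit gene egl-45 (III 7824377 to 7828626) and the subunit joining gene iffb-1 (III 2314436 to 2326901) had none.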
